A study of Mus musculus with 24 samples.

Results

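Loss of STAT6 was examined in resting mouse bone marrow-derived macrophages, that is, in cells given neither IL-4 nor the PPARγ ligand rosiglitazone (RSG). The 6 arrays labelled as control macrophages without RSG were compared, 3 from STAT6 knockout mice (KO control, mice 4, 5 and 6) and 3 from wild-type mice (WT control, mice 1, 2 and 3), out of 24 arrays in the whole series. The other 18 arrays came from the same 6 mice after RSG, IL-4 or IL-4+RSG, so each mouse gave 4 arrays. All mice were labelled C57Bl/6, and marrow cells were kept for 10 days with M-CSF, the growth factor of macrophages, at 20 ng/ml. Where given, IL-4 was at 20 ng/ml and RSG at 1 µM, and the control cultures received the vehicle of RSG, a mix of DMSO and ethanol. The KO mice were of a purchased germline Stat6-/- line, so the gene was disrupted in the marrow precursors too, and mouse and genotype cannot be told apart beyond the spread of 3 mice a group. The ages of the mice are not given in the sources used here.

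STAT6 is a transcription factor held latent in the cytoplasm. Binding of IL-4 or IL-13 to receptors that contain IL-4Rα activates Janus kinases, which phosphorylate STAT6, and the STAT6 dimer then enters the nucleus and binds inverted TTC and GAA repeats near its target genes. In macrophages it is known for switching on the alternative activation programme, with arginase 1, the chitinase-like protein Ym1 (Chil3) and Fizz1 (Retnla). The control cultures had no added IL-4, so the comparison of KO control with WT control cells asked which transcripts differed without that added signal. The WT control array of mouse 3 was nonetheless high in genes of that programme, as given below.

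Each value is a log2 ratio that the study's methods scale to the median of the probe set over the arrays, and the median ratio was 1 at 38889 of the 45037 probe sets. It carries no absolute level, so values compare arrays for a given probe set and never probe sets with each other, and whether a marker is near background is not known. The 6 resting arrays differed in ways that genotype did not separate. Of 15 macrophage identity genes, among them Csf1r (the M-CSF receptor), Adgre1 (F4/80) and Cd68, the median difference, KO control minus WT control, was -0.00 (-0.04 without WT control mouse 2, 0.04 without mouse 3), and the array means of the list lay between 0.03 and 0.19 in KO control and between -0.10 and 0.18 in WT control cells. The WT control array of mouse 3 was high in genes that IL-4 induces. Its mean over 27 alternative activation genes was 1.14, whereas KO control arrays had -1.58, -1.11 and -1.11 and the other WT control arrays -0.98 and -1.04. That array also had the highest mean of the 6 in eosinophil (1.09), mast cell and basophil (0.82) and dendritic cell markers (0.82). The same held for neutrophil (0.67) and lymphocyte markers (0.31), but not for macrophage identity or stromal fibroblast markers. The WT control array of mouse 2 was high in stromal fibroblast markers. For 18 such genes the array means were -0.47, -0.71 and 0.10 in KO control cells and 1.51, 3.44 and -0.47 in WT control cells. Printed list medians that move by over 1.5 times without either array are given with and without it below.

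The targeted gene separated the genotypes on both of its probe sets. Stat6 read -1.64, -2.03 and -1.84 on 1421708_a_at in KO control cells, against 0.86, 0.74 and 0.82 in WT control cells. On 1426353_at the values were -1.74, -1.54 and -1.57 in KO control cells and 0.92, 0.89 and 0.71 in WT control cells. The groups lay far apart and each was tight. The differences were -2.64 ± 0.23 and -2.46 ± 0.21 (SE, n = 3 each, adjusted p = 1.3e-05 for both), so that KO cells kept 0.160 of the WT signal on the first probe set. Where these probe sets lie relative to the disrupted part of the gene is not given in the sources used here.

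Beyond Stat6 few probe sets were called at rest, although 9.68% of all had an unadjusted p under 0.05. Of 45037 probe sets, 78 (0.173%) were called, meaning a Benjamini-Hochberg adjusted p below 0.05 with at least a 1.5-fold difference, 63 lower in KO control cells (0.140%) and 15 higher (0.0333%). In the same fit the genotypes differed at 47 probe sets with RSG (0.104%) and at 10994 with IL-4 (24.4%). The 65 called probe sets with a single gene symbol stood for 61 genes, 49 lower and 12 higher, while 10 had no symbol and 3 had several. The 3 KO control arrays did not overlap the 3 WT control arrays at any of the 78, compared with 15.4% of all probe sets tested without overlap. These same arrays chose the 78, so that lack of overlap is largely set by the choice. Among the 63 that fell, 19 fell at least 4-fold and 29 fell less than 2-fold, with a median of -1.08. Among the 15 that rose, 9 rose at least 4-fold and the median was 2.76. Over all probe sets the median difference was -0.06, with quartiles at -0.30 and 0.26.

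This count rested on the spread estimated over all 24 arrays. A fit on the 6 resting arrays alone called 0 probe sets with limma, although 3568 had an unadjusted p under 0.05, and a fit on the 12 arrays without IL-4 called 8. Leaving out a single resting array gave 34 calls without KO control mouse 4, 47 without mouse 5 and 52 without mouse 6, and 41, 35 and 57 without WT control mice 1, 2 and 3, of which 23 to 41 were among the 78. Leaving out all arrays of a mouse kept 20 to 37 of the 78. Of the 65 named probe sets, 10 stayed called in all 12 of these fits and 7 in none. The 10 belonged to 9 genes, Stat6, Atp10d, Pla2g7, H2-K1, Rnf41, Cd274, Atf2, Wars and Prdx2, of which Atf2 and Wars were singled out after their values were seen.

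**Figure D1:**
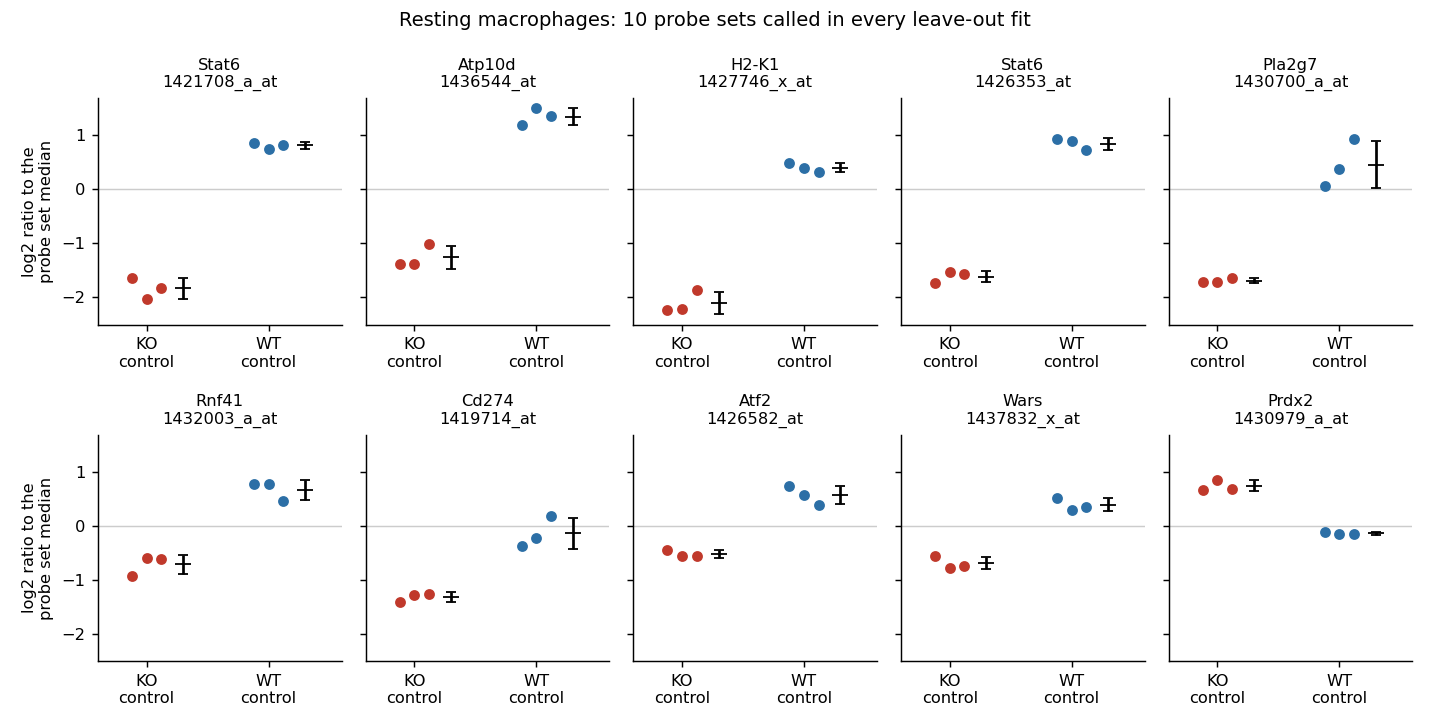
Log2 ratio to the probe set median (y axis) on each KO control array (red, mice 4 to 6 from left to right) and each WT control array (blue, mice 1 to 3), for the 10 probe sets called in every fit that left out an array or a mouse, with bars for the mean and SD of 3 arrays. The KO control arrays lie below all WT control arrays in 9 panels and above them for Prdx2 (0.67, 0.86 and 0.69 against -0.11, -0.16 and -0.16).

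A pair of lipid genes was among the falls that every such fit called. Atp10d, a P4-type ATPase that flips glycosphingolipids such as glucosylceramide across membranes, read -1.38, -1.39 and -1.01 in KO control cells and 1.18, 1.49 and 1.35 in WT control cells. Its difference was -2.60 ± 0.20 (adjusted p = 5.4e-06), the smallest p of all. Pla2g7, the secreted phospholipase that hydrolyses platelet-activating factor and oxidised phospholipids, read -1.72, -1.72 and -1.64 in KO control cells, against 0.06, 0.37 and 0.92 in WT control cells. The difference was -2.14 ± 0.19 (adjusted p = 1.6e-05), and mouse 3 was the highest WT array. Each gene had a single probe set. Among related genes, Pla2g7 was the only called gene of 18 measured phospholipase and eicosanoid genes (median -0.17), and Atp10d the only called gene of 18 flippases and scramblases (median -0.23), beside a median of -0.06 and a share called of 0.214% over 18193 genes. Both lists were chosen with earlier results of these data known.

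Promoters of the called genes were searched for the inverted repeats that STAT proteins bind, TTCNNNNGAA, the spacing preferred by STAT6, and TTCNNNGAA, which most STATs bind. Both were searched on both strands, and each promoter shown here holds only 1 of the 2 spacings. RefSeq promoters of assembly GRCm38.p6, from 250 bases before to 50 after a gene's start, were at hand for 38 of the 49 lower genes and 7 of the 12 higher genes. TTCNNNNGAA was in a promoter of 3 lower genes (7.9%) and of 3 higher genes (42.9% of 7), against 6.9% of 14452 tested genes with a promoter. TTCNNNGAA was in a promoter of 6 lower genes (15.8%) and 0 higher genes, against 8.6% of all. These matches describe the sequence only. The promoters of Pla2g7 and Fgl2, lower genes with the shorter spacing, and of Lnpk, with the longer spacing, are shown with the motif in capitals, 5′ to 3′ on the strand of the gene. They lie at chr17:43568201-43568500 (plus strand), chr5:21372423-21372722 (plus strand) and chr2:74578899-74579198 (minus strand), and the motifs begin 145, 36 and 227 bases before the start of the gene.
Pla2g7: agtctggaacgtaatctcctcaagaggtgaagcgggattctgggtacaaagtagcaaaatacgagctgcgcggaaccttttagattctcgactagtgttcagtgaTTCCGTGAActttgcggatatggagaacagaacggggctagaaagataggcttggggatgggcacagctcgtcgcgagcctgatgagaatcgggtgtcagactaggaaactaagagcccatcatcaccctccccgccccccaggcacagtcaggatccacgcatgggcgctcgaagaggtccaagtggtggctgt
Fgl2: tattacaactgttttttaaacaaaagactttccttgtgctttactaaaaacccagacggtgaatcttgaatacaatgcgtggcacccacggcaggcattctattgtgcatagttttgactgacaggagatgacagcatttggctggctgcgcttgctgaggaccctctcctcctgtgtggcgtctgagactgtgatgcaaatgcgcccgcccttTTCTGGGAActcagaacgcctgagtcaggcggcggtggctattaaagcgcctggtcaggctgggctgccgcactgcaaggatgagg
Lnpk: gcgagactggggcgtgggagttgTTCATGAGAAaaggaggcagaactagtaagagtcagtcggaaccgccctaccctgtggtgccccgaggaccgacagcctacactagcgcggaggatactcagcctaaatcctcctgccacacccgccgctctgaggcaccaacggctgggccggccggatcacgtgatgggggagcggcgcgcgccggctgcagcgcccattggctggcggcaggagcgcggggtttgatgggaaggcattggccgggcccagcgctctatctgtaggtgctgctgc

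Cd274, which encodes the inhibitory T cell ligand PD-L1, read -1.42, -1.28 and -1.26 in KO control cells and -0.37, -0.22 and 0.18 in WT control cells, a difference of -1.18 ± 0.14 (adjusted p = 6.3e-04). An MHC class I probe set of H2-K1, 1427746_x_at, read -2.24, -2.21 and -1.86 in KO control cells, against 0.48, 0.39 and 0.32 in WT control cells. Its difference was -2.50 ± 0.25 (adjusted p = 7.2e-05). A probe set shared by H2-K1 and H2-D1 fell by 2.29 and another shared by H2-Q9 and H2-Q7 fell by 2.13 on the log2 scale. The other 3 probe sets of H2-K1 differed by only -0.18, -0.17 and -0.13 and none passed the test. These genes are near-identical copies that share sequence, so which MHC class I transcript was lower is uncertain. Fgl2, a fibrinogen-like immunoregulatory protein of macrophages, read -1.84, -1.21 and -1.28 in KO control cells and 0.08, 0.55 and 1.24 in WT control cells (difference -2.07 ± 0.32, adjusted p = 0.012). It kept its call in 8 of the 12 fits, and its second probe set was at -1.03 ± 0.25 (adjusted p = 0.11).

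Of 15 genes of MHC class II presentation and costimulation, 14 had a difference below 0 and the median was -0.55, but Cd274 was the only called member. An unadjusted p under 0.05 was reached by 6 lower and 0 higher members, beside 7.15% and 2.61% of all genes. H2-Aa, a chain of the class II molecule, read -2.16, -2.15 and -2.18 in KO control cells and -1.60, -0.97 and 0.22 in WT control cells, without overlap (-1.38 ± 0.45, adjusted p = 0.28). Cd74, the invariant chain, read -1.93, -1.90 and -1.82 in KO control cells against -1.50, -1.33 and 0.34 in WT control cells (-1.05 ± 0.41, adjusted p = 0.39). In both genes the WT control array of mouse 3 was far above the other WT control arrays. Without that array the list's median was -0.22.

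The neighbours of Stat6 on chromosome 10 included 2 called genes of 228 measured, both lower in KO cells, where 0.214% of all genes were called. Rnf41, which encodes the ubiquitin ligase Nrdp1 and lies 36 protein-coding genes from Stat6, was lower on all 4 of its probe sets and called on 3. On 1432003_a_at it read -0.93, -0.60 and -0.62 in KO control cells and 0.76, 0.76 and 0.45 in WT control cells (difference -1.38 ± 0.16, adjusted p = 5.3e-04). On 1455763_at and 1423842_a_at the differences were -1.88 ± 0.32 and -0.80 ± 0.11, and on 1453633_a_at, which was not called, -1.66 ± 0.66. The call held in 4 of the 12 fits on 1455763_at and in 10 on 1423842_a_at. Atp23, a mitochondrial metalloprotease gene 32 genes away on the other side, read -0.09, -0.00 and 0.26 in KO control cells and 1.07, 1.11 and 0.74 in WT control cells (difference -0.92 ± 0.17, adjusted p = 0.035), and it kept its call in 3 of the 12 fits. Nearer to Stat6 there was no call, although 47 of the 50 genes within 25 positions were measured, with a median of -0.10, or -0.20 without the WT control array of mouse 3. Within 200 positions 228 of 328 genes were measured, with a median of -0.11, or -0.17 without that array. Whether DNA of another strain surrounds the disrupted gene in these mice was not tested.

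**Figure D2:**
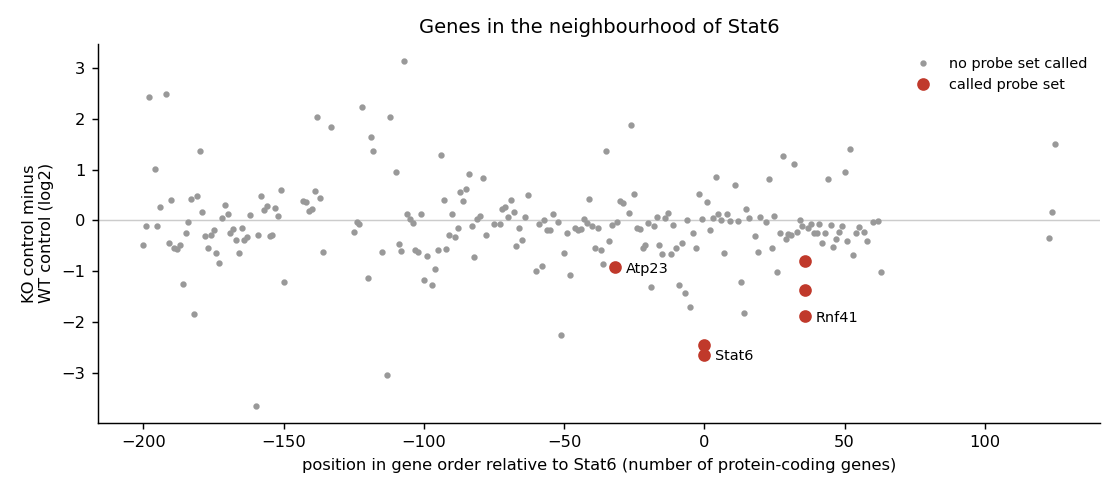
KO control minus WT control (y axis, log2) for genes within 200 positions of Stat6 in gene order on chromosome 10 (x axis, number of protein-coding genes), with 1 probe set a gene in grey and every called probe set in red. Stat6 and Rnf41 hold several called probe sets, Atp23 holds 1, and the genes between them lie on both sides of 0.

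Distances between called genes next in order on a chromosome ran from 2 to 657 genes. The shortest are given here, picked after the values were seen and not compared with distances between other genes. Cd2ap, an adaptor that links membrane receptors to actin, lay 6 genes from Pla2g7 on chromosome 17, and it read -0.34, -0.35 and -1.04 in KO control cells and 1.04, 0.61 and 0.95 in WT control cells on 1420906_at. It fell by 1.44 there and by 1.59 on 1420908_at, was -0.20 ± 0.12 on the third probe set, and kept each of its calls in 1 of the 12 fits. Atf2 and Lnpk lay 2 genes apart on chromosome 2, and Emb and Nnt 4 genes apart on chromosome 13, pairs that were singled out after their values were seen. Chromosome 2 held 7 of the 61 called genes (11.5%, against 7.76% of measured genes), chromosome 13 held 6 (9.84% against 3.89%) and chromosome 10 held 5 (8.20% against 4.77%). Chromosomes 3, 15, 18 and 19 held 4 each (6.56%, against 5.06%, 4.02%, 2.55% and 3.38%), and chromosomes 4 and 9 held 0. Nnt, the mitochondrial transhydrogenase whose gene is truncated in the C57BL/6J substrain, read 0.42, 0.58 and 0.48 in KO control cells and 1.19, 1.45 and 0.83 in WT control cells (difference -0.67 ± 0.12, adjusted p = 0.033). It kept its call in 2 of the 12 fits. It was the only called gene of a chosen list of 28 measured genes known to differ between mouse strains, with 0.214% of all genes called. The list is not a full one, and the called H2-K1 and Atp10d were not on it. The median of the list was -0.05, or -0.10 without WT control mouse 2 and -0.13 without mouse 3.

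The largest falls were in genes with wide spread between arrays. Gdf3, a TGF-β family ligand made by macrophages, read -2.82, -4.06 and -2.05 in KO control cells and 0.82, 0.51 and 2.55 in WT control cells (difference -4.27 ± 0.79, adjusted p = 0.037). Ptx3, a soluble pattern recognition protein, read -3.96, -2.58 and -1.74 in KO control cells, against 0.36, 2.01 and 0.95 in WT control cells (-3.87 ± 0.73, adjusted p = 0.041). F3, the tissue factor that starts coagulation, read -2.32, -3.10 and -3.63 in KO control cells and -0.35, 0.80 and 0.49 in WT control cells (-3.33 ± 0.51, adjusted p = 0.010). None of the 3 genes overlapped between genotypes, but Gdf3 and Ptx3 each kept the call in 2 of the 12 fits and F3 in 8. The second probe set of Gdf3 was at -1.75 ± 0.56 and that of Ptx3 at 1.05 ± 0.91, neither called. Tmem35a (-3.88), Spata9 (-3.55), Skp2 (-3.29), Rai14 (-2.77), Lnpk (-2.69) and Efnb2, the ligand ephrin-B2 (-2.62), also fell, and each of these stayed called in 1 to 5 of the 12 fits. Skp2, the substrate-binding subunit of a ubiquitin ligase that acts on cell cycle inhibitors, had 5 further probe sets between -0.14 and 0.32, none called.

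Itgam, the CD11b chain of complement receptor 3 and a macrophage marker, read -0.05, 0.05 and -0.60 in KO control cells and 0.63, 0.53 and 0.75 in WT control cells, with a difference of -0.84 ± 0.17 (adjusted p = 0.046). It kept its call in 1 of the 12 fits. Itgb5, a subunit of the integrin αvβ5 that takes part in the uptake of apoptotic cells, was -0.69 ± 0.11 on 1456133_x_at (adjusted p = 0.015), and its other 3 probe sets lay between -0.24 and -0.12 without a call.

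Of the 12 named genes that rose, Prdx2, a peroxiredoxin that reduces hydrogen peroxide, was the only one called in all 12 of those fits, with a rise of 0.88 ± 0.12 (adjusted p = 0.0030) on 1430979_a_at, while its other probe set differed by 0.02 ± 0.10. Pdk1, a kinase that holds back pyruvate dehydrogenase, read 0.40, 0.70 and 0.36 in KO control cells and -0.03, -0.29 and -0.53 in WT control cells (0.77 ± 0.14, adjusted p = 0.037), and it kept its call in 2 of the 12 fits. Cd4, the T helper coreceptor, read 3.07, 2.41 and 2.10 in KO control cells and 0.02, -0.63 and -0.85 in WT control cells on 1419696_at (3.01 ± 0.54, adjusted p = 0.033), with 1.43 ± 1.13 on its second probe set, and it kept its call in 2 of the 12 fits. No lymphocyte marker was called by its chosen probe set: Cd3d, Cd3e and Cd3g of the T cell receptor complex were at -1.55, -0.94 and -1.18, and the list of 13 had a median of -0.84, or -0.36 without the WT control array of mouse 3. The semaphorin Sema4b read -0.13, -0.15 and 0.44 in KO control cells, against -2.74, -3.46 and -1.91 in WT control cells on 1427586_at (2.76 ± 0.41, adjusted p = 0.0079), but -0.57 ± 0.13 on its other probe set. The remaining rises were Galnt15 (3.27), the desmosomal cadherin Dsg2 (3.22), 4930481A15Rik (3.19), Misp (2.08), Mpp7 (1.45), Sgcb (1.19), the histone gene H2aw (1.13) and Snx32 (0.86), of which Dsg2 kept its call in 7 of the 12 fits, Sgcb in 0 and the others in 2 to 4. The second probe set of Galnt15 was at -1.15 and that of H2aw at 0.81. The lowest of the further probe sets was at -0.25 for Sgcb, 0.12 for Dsg2 and 0.08 for Mpp7. The largest rises were on probe sets with no gene symbol here, 1437086_at (4.34 ± 0.55, adjusted p = 0.0010) and 1432653_at (4.30 ± 0.78).

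Most calls rested on a single probe set of the gene. Of the 61 called genes, 49 had several probe sets, and only Stat6, Rnf41 and Cd2ap had more than 1 called. The 118 further probe sets of these genes moved the same way in 91 cases, by a median of 0.20 in the direction of the call, and 33 of them reached an unadjusted p under 0.05 in that direction against 3 in the other, where 9.68% of all probe sets reached it in either. Wars, the tryptophanyl-tRNA synthetase, was an example of disagreement, with -1.08 ± 0.09 on the called 1437832_x_at (adjusted p = 1.3e-05), -0.49 and -0.47 on 2 further probe sets, and 0.43 on 1415694_at, where KO control arrays were the higher ones. Atf2, a stress-responsive transcription factor, fell by 1.08 on 1426582_at, and its other 4 probe sets lay between -0.16 and 0.17.

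The same mice were measured again after treatment. Those arrays gave no resting value, but they shared in the estimate of spread by which the 78 were called. With RSG, 65 of the 78 probe sets kept the direction and 22 also passed an adjusted p under 0.05, 19 lower and 3 higher, against 0.0822% of all probe sets lower and 0.0222% higher with RSG. In the fit on the 12 arrays without IL-4, 4 passed. With IL-4, 51 of the 78 passed in the resting direction and 7 in the opposite one, and with IL-4+RSG 55 passed and 6 were opposite, but there the genotypes differed at 30.5% and 26.2% of all probe sets. Passing at rest was set by the choice of the 78. How many of all probe sets passed in all 4 treatments was not counted. Of the 78, 19 probe sets passed in 1 direction in all 4 treatments. They were, singled out after their values were seen, Stat6 and Rnf41 on 2 probe sets each, Gdf3, Atp10d, H2-K1, Pla2g7, Cd274, Atf2, Wars, Cwc22, Wdr37 and Itgb5, lower, Pdk1 and H2aw, higher, and 3 unnamed probe sets, lower. At 31 of the 78 none of the 12 KO arrays overlapped any of the 12 WT arrays, as against 0.775% of all probe sets. These arrays include the resting ones that chose the 78, none of which overlapped at rest, so that share is partly set by the choice.

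**Figure D3:**
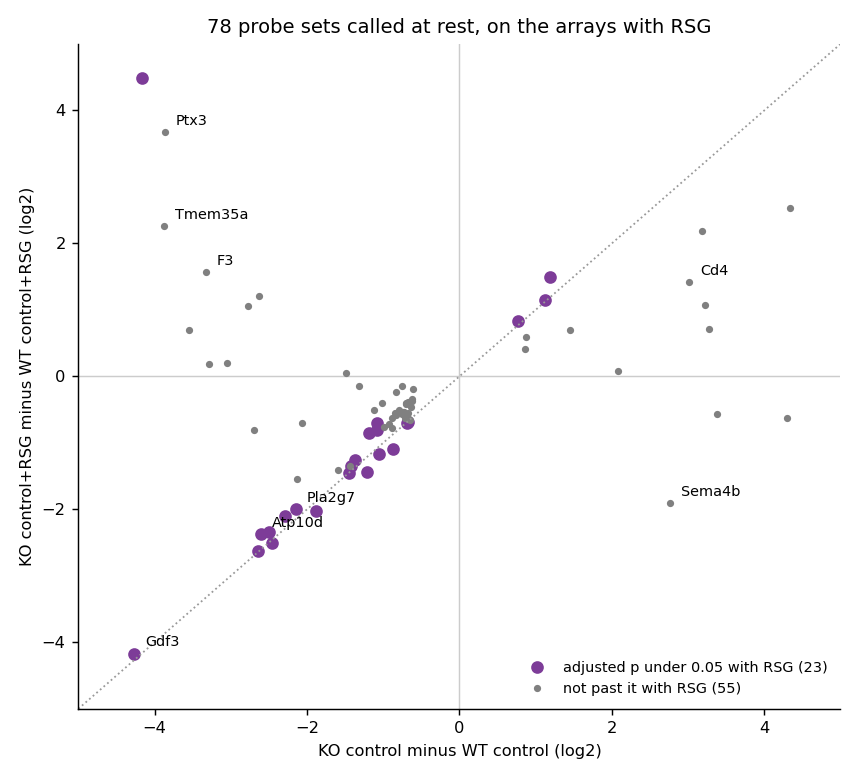
Genotype difference on the RSG arrays (y axis, KO control+RSG minus WT control+RSG, log2) against that on the resting arrays (x axis, KO control minus WT control, log2) for the 78 called probe sets, with a dotted line of equality. Purple points passed an adjusted p under 0.05 with RSG (23, of which 22 in the resting direction) and lie near the line apart from 1 unnamed probe set at the upper left, while several large resting differences, Ptx3, Tmem35a, F3 and Sema4b among them, have the opposite sign.

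Atp10d, Pla2g7 and Cd274 kept their difference through the treatments. For Atp10d the genotype difference was -2.38 with RSG, -2.06 with IL-4 and -2.22 with IL-4+RSG, beside -2.60 at rest. For Pla2g7 it was -1.99, -1.58 and -1.84, beside -2.14 at rest. In Cd274 it was -0.86, -1.02 and -1.72, beside -1.18 at rest, although KO cells read 0.44, 0.75 and 0.89 with IL-4, far above their resting values of -1.42, -1.28 and -1.26, and WT cells 1.58, 1.74 and 1.83. Each of these 9 values had an adjusted p under 0.05. Gdf3 differed by -4.17, -4.09 and -5.07. The test of the difference between treated and resting genotype differences was not passed by any of the 4 genes, whether with RSG or with IL-4.

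A few resting differences did not hold with RSG. The test of that change uses the resting arrays again, which also chose the 78. Among the 78, the genotype difference with RSG departed from that at rest for 4 probe sets at an adjusted p under 0.05, where 5 of all 45037 did (0.0111%). Ptx3 read 1.51, 0.87 and 3.75 in KO control+RSG cells and -2.02, -2.14 and -0.75 in WT control+RSG cells, the reverse of its resting order, and the change of the difference was 7.54 ± 1.04 (adjusted p = 0.013). F3 read -1.11, -0.00 and 1.12 in KO control+RSG cells and -0.77, -2.56 and -1.37 in WT control+RSG cells, with a change of 4.90 ± 0.72 (adjusted p = 0.021). Sema4b read -2.08, -1.25 and -1.93 in KO control+RSG cells against 0.48, 0.70 and -0.71 in WT control+RSG cells, a change of -4.67 ± 0.58 (adjusted p = 0.0058). The fourth was the unnamed 1418476_at. For the stromal fibroblast markers the median genotype difference was likewise of opposite sign, -1.59 at rest and 3.46 with RSG. Their part in these 4 results was not tested. When the arrays highest in those markers were left out, mouse 2 in WT control and mouse 6 in KO control+RSG, 2 members passed this test, and 0 passed in the fit on 12 arrays or when mouse 1, 2 or 6 was left out.

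With IL-4 the genotype difference departed from that at rest for 35 of the 78, with 16.2% of all probe sets doing so. It was larger in the resting direction for 12 and moved toward 0 or past it for 23. This test too uses the resting arrays that chose the 78, so movement toward 0 can come from that choice. Fgl2 reversed, with 2.77, 2.86 and 3.42 in KO IL-4 cells and 0.60, 0.85 and 1.51 in WT IL-4 cells (change 4.09 ± 0.46, adjusted p = 5.7e-06). Tspan5, a tetraspanin, grew apart, with 0.06, -0.28 and -0.14 in KO IL-4 cells and 2.76, 2.60 and 2.64 in WT IL-4 cells, beside a resting difference of -0.83 ± 0.15 (change -1.96 ± 0.21, adjusted p = 3.0e-06). Arhgap6 did the same, with a change of -1.27 ± 0.14 and a resting difference of -0.62 ± 0.10. Sema4b again turned round, to -2.66, -2.60 and -2.72 in KO IL-4 cells against 1.64, 1.19 and 1.53 in WT IL-4 cells (change -6.87 ± 0.58, adjusted p = 3.0e-07). The MHC class I probe sets also moved with IL-4. H2-K1 on 1427746_x_at differed by -0.87 (change 1.63 ± 0.36, adjusted p = 0.0034). The probe set shared by H2-K1 and H2-D1 was at -0.16 (change 2.14 ± 0.36, adjusted p = 4.2e-04). That shared by H2-Q9 and H2-Q7 reversed to 2.71 (change 4.84 ± 0.56, adjusted p = 9.5e-06).

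**Figure D4:**
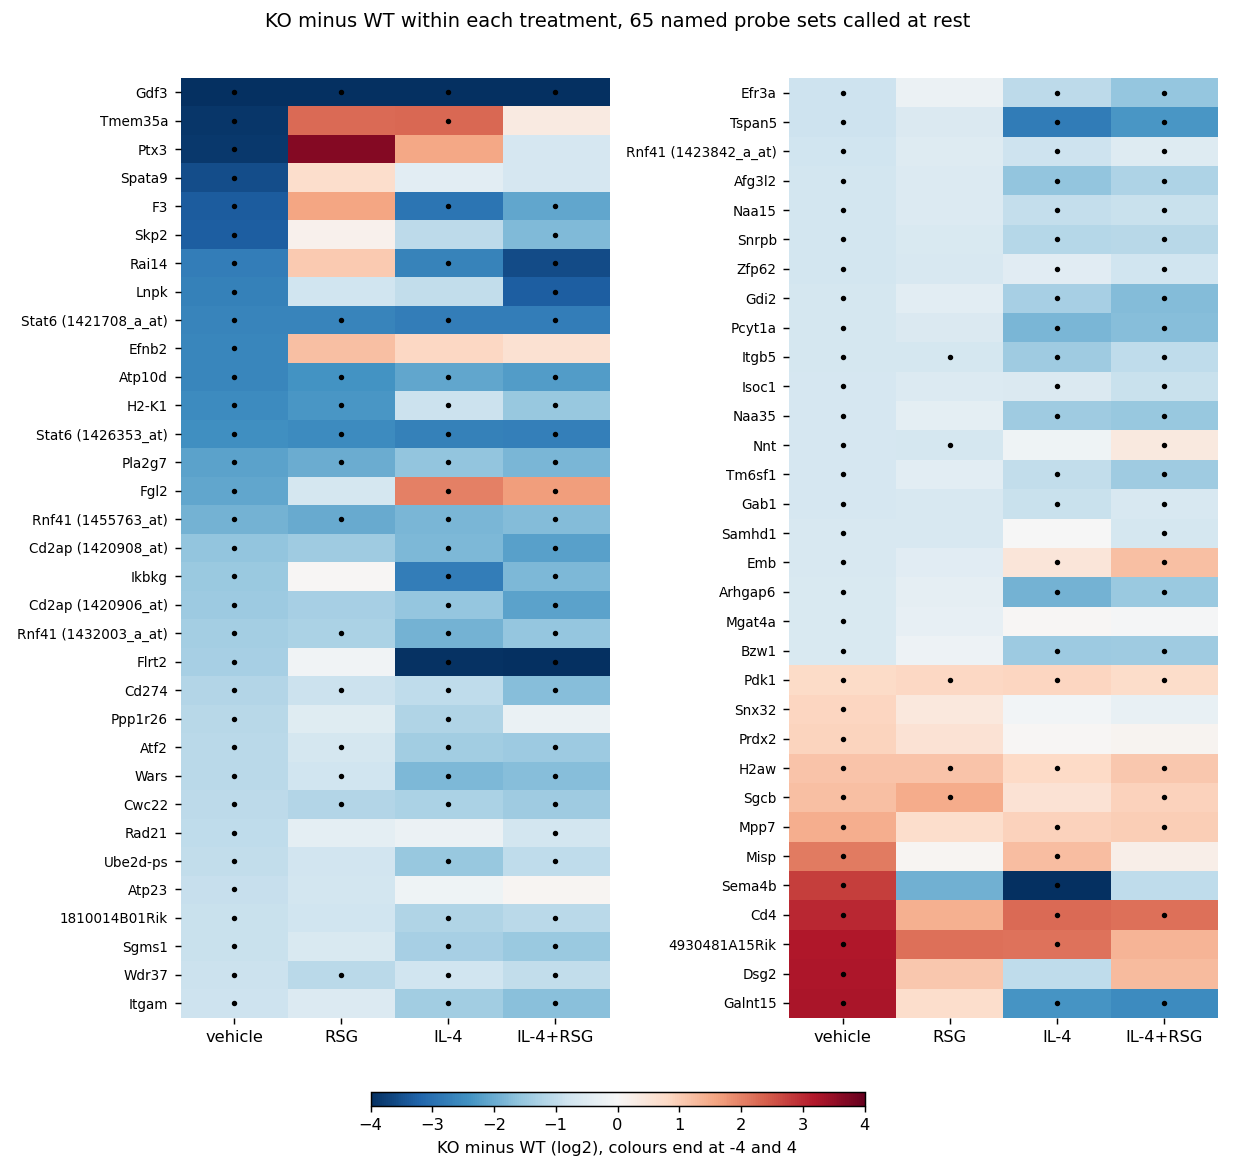
KO minus WT (colour, log2, blue lower and red higher in KO, colours ending at -4 and 4) in vehicle, RSG, IL-4 and IL-4+RSG cultures (columns) for the 65 named probe sets called at rest (rows, by resting difference). Black dots mark an adjusted p under 0.05; Stat6, Atp10d, Pla2g7, Cd274 and Gdf3 are blue with a dot in all 4 columns, and Fgl2, Sema4b and Galnt15 change colour with IL-4.

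The IL-4 pathway upstream of STAT6 gave no call. Of 13 measured genes of IL-4 and IL-13 receptor signalling, 11 lay below 0 with a median of -0.30 (-0.15 by the probe sets of highest mean), and at 7 the KO control arrays were all below the WT control arrays, a share to be set beside 10.8% of all genes. Unadjusted p values under 0.05 were found for 5 lower and 0 higher genes, beside 7.15% and 2.61% of all genes. Il4ra, the shared receptor chain, read -0.02, -0.11 and -0.10 in KO control cells and 0.29, 0.36 and 0.02 in WT control cells (-0.30 ± 0.19, adjusted p = 0.67). Jak1, a kinase of the receptor, was -0.70 ± 0.28 and Cish, a feedback inhibitor of cytokine receptors, -0.56 ± 0.21, neither called. Of the other 5 STAT family members measured, Stat2, Stat3, Stat4, Stat5a and Stat5b, none was called and their differences lay between -0.24 and 0.03.

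Alternative activation genes were lower on average, and that average turned on a single WT array. Of 27 genes, 21 lay below 0 with a median of -0.64, and none was called. At an unadjusted p under 0.05, 8 were lower and 0 higher, beside 7.15% and 2.61% of all genes. The arrays did not overlap at 4 lower genes and 1 higher gene, beside 10.8% and 5.23% of all genes. Without the WT control array of mouse 3 the median was -0.14. Retnla read -2.58, -1.54 and -2.26 in KO control cells and -1.89, -2.10 and 5.88 in WT control cells, so that only mouse 3 stood apart (-2.75 ± 1.65, adjusted p = 0.65). Arg1 read -4.77, -5.42 and -3.16 in KO control cells, against -3.38, -2.71 and 2.19 in WT control cells (-3.15 ± 1.01, adjusted p = 0.27). The chemokine Ccl24 read -1.78, -0.53 and -1.77 in KO control cells and 0.20, -0.24 and 2.75 in WT control cells, and Fn1, fibronectin, read -3.16, -2.99 and -2.19 in KO control cells and -1.43, 0.44 and 0.86 in WT control cells. These last 2 did not overlap between genotypes but were not called (adjusted p = 0.24 and 0.22). Chil3 (-0.69 ± 0.39), Ccl17 (-1.80 ± 0.78) and Mrc1, the mannose receptor (0.12 ± 0.20), overlapped.

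PPARγ and its lipid targets did not pass the test at rest. Among 20 PPAR-regulated genes that take up and store lipid, 0 were called by limma, 3 had an unadjusted p under 0.05, and the median was -0.18, or -0.10 without WT control mouse 2. Pparg itself read -0.65, 0.15 and -0.14 in KO control cells and -0.02, 0.02 and 0.45 in WT control cells (-0.37 ± 0.23, adjusted p = 0.68). Fabp4, the fatty acid-binding protein, was between -0.73 and 0.21 over its 4 probe sets, Cd36, the fatty acid translocase, between -0.30 and -0.15 over 3, and Scd1, the stearoyl-CoA desaturase, -0.63 and 0.18 over 2. Angptl4 was 1.20 ± 0.55 on 1453410_at and -0.13 ± 0.23 on 1417130_s_at. Pdk4 was 0.51 ± 1.01.

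Inflammatory and metabolic lists held no called gene by the chosen probe sets. Of 21 interferon-stimulated genes, 19 lay below 0, with a median of -0.22 and 0 calls (4 with an unadjusted p under 0.05), and the median was -0.33 without WT control mouse 2 and -0.14 without mouse 3. Of 25 proinflammatory cytokines and mediators, 18 lay below 0 with a median of -0.15 and 0 calls (1 unadjusted), and the median was -0.27 without mouse 2 and -0.10 without mouse 3. Mitochondrial fatty acid oxidation had 18 of 20 below 0 and a median of -0.16, LXR targets -0.17 (-0.10 without mouse 2), and Toll-like receptors and adaptors -0.10 (-0.18 without mouse 3), each with 0 calls by limma. Sterol and fatty acid synthesis, also with 0 calls, had a median of 0.05 that changed sign, to -0.04 without mouse 2 and -0.12 without mouse 3. For comparison, 56.7% of all genes lay below 0. Some medians moved with a single WT control array. Osteoclast and fusion markers had a median of -0.51, or -0.05 without mouse 3, and stromal fibroblast markers -1.59, or -0.78 without mouse 2 and -2.75 without mouse 3. Over all lists, 6 of 455 measured genes, with 0.214% of all genes called, were called by their chosen probe set, Stat6, Pla2g7, Atp10d, Cd274, Itgam and Nnt, and 10 when any probe set counted. The lists were chosen with earlier results of these data known and hold Stat6 itself, so these shares make no test.

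**Figure D5:**
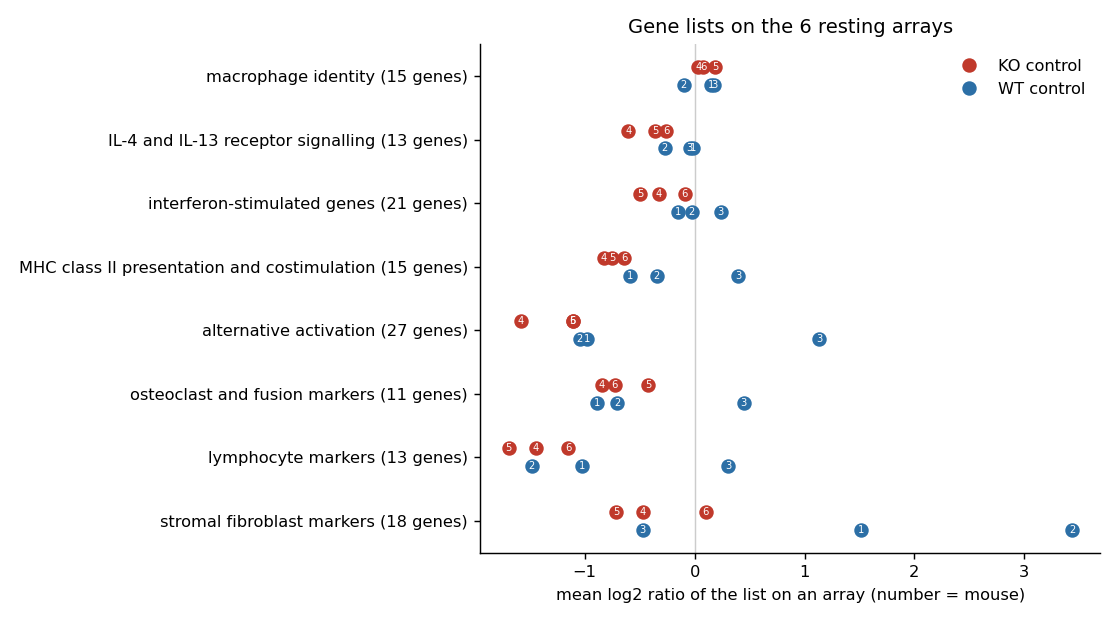
Mean log2 ratio (x axis) of 8 gene lists on each KO control array (red, upper row of a list) and WT control array (blue, lower row), with the mouse number in each point. The macrophage identity list is level on all 6 arrays, the WT control array of mouse 3 is highest in alternative activation (1.14) and MHC class II genes (0.40), and that of mouse 2 in stromal fibroblast markers (3.44).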

How the data were processed

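Arrays were Affymetrix mouse whole-genome arrays, 1 per culture. The authors deposited linear ratios: per the study's methods, GC-RMA and GeneSpring were used, each array was scaled to its 50th percentile and each probe set divided by its median over the arrays. The processing notes name GCOS and GCRMA without versions. A further division by vehicle controls named in the methods is not carried by the values. Such ratios carry no absolute level, so signal near background cannot be told from them. They ran from 0.01 to 1949.69 and no 2 arrays were identical. The number of arrays limits the precision.

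Ratios were taken to log2. After 64 controls were left out of 45101 probe sets, 45037 were fitted with limma 3.58.1 in R 4.3.3 (lmFit, eBayes with a variance trend) over all 24 arrays (8 groups, 16 residual degrees of freedom, 1.94 prior). Tests were two-sided with Benjamini-Hochberg adjustment. The method was tested on simulated data. Pearson correlations of arrays of the same genotype among the 6 lay between 0.183 and 0.333, and between genotypes from 0.138 to 0.237.

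Platform annotation gave 1 symbol to 34945 probe sets, several to 932 and none to 9160. Of the first, 34741 matched RefSeq (GRCm38.p6), which also gave gene order. A gene's probe set in a list was chosen by suffix and then by SD over the 18 other arrays. Named genes were Stat6, the 12 largest called rises and 16 largest called falls, called list members, genes with several called probe sets, genes of the study's text, called neighbours of Stat6 and called genes with an interaction. Members, lists and this rule were chosen with earlier results of these data known. Alternatives were other sample sets, normalizations, thresholds, tests, the mouse as a block and left-out arrays.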

Additional observations from a re-analysis of the deposited data

Results flagged for a closer look

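Among the 78 probe sets called at rest, the genotype difference itself changed with RSG for 4 and with IL-4 for 35, by the interaction test at an adjusted p under 0.05. Both counts use again the resting arrays that chose the 78. With RSG, the change in the KO minus WT difference was 7.54 for Ptx3, 4.90 for F3 and -4.67 for Sema4b on the log2 scale. With IL-4, it was -6.87 for Sema4b, -1.96 for Tspan5, -1.27 for Arhgap6 and 4.09 for Fgl2. Groups of 3 arrays were too small to test single arrays as outliers.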

How the results depend on the processing

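The 78 calls became 0 in a fit on the 6 compared arrays and 0 by the methods' t-test after adjustment (3702 at an unadjusted p under 0.05, 1716 of them at least 1.5-fold), 8 on the 12 arrays without IL-4 (7 of the 78), 49 without a variance trend, 244 after quantile normalization (all 78 among them), 46 at 2-fold and 48 without mouse 2 in WT control and mouse 6 in KO control+RSG. On the probe sets with a median ratio of 1 there were 90 calls, with 73 of the 78. Leaving out 1 array or 1 mouse gave 34 to 61 calls. With each array centred on its median, 74.1% of 81 calls were lower, against 80.8%. With the mouse number as a random replicate block there were 81 calls, with all 78 among them, and the correlation of arrays of a mouse was 0.0114. KO and WT mice share no number, so no array of the comparison has a partner. The members repeated with RSG, 22, became 4 on 12 arrays, 11 without the 2 arrays named and 10 to 24 over the leave-outs. The 4 interactions with RSG became 0 on 12 arrays, 2 without the 2 arrays named and 0 to 4 over the leave-outs, and the 35 with IL-4 were 26 to 34 there. List genes called were 10 where any probe set counted, against 6. Of 1494 values of named called probe sets under an alternative, 695 kept the call, 799 lost it and 0 changed direction; the causes were not tested. For 11 genes of the study's text, each followed on its chosen probe set only, no alternative gave a call. Acsl1 and Spp1, also of that text, had no probe set with their symbol alone.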
